A study of Mus musculus with 7 samples.

Results

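Expression of 9 regulators of the inner ear sensory patch was followed in damaged mouse utricles with and without Fos overexpression. They are 4 prosensory genes (Eya1, Gata3, Sox2 and Isl1) and 5 genes of the early hair cell (Insm1, Hes6, Lhx3, Barhl1 and Srrm4). They were taken as a list by name, and all 9 were found among the 32285 genes of the count files. Of these, 8 had enough reads to be tested, together with 17155 genes in all, and Insm1 did not.

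The utricle is the vestibular organ that senses linear acceleration, and its sensory epithelium holds hair cells and supporting cells. Prosensory factors mark the cells from which both types arise. Eya1 is a transcriptional coactivator and phosphatase that works with homeodomain partners, Gata3 is a zinc finger factor, Sox2 is an HMG box factor and Isl1 is a LIM homeodomain factor. Once Atoh1 turns on in a hair cell precursor, a further set of genes follows, among them Hes6, a Hes family member that opposes Hes1, Insm1, a zinc finger factor, Lhx3, a LIM homeodomain factor, and Barhl1, a homeodomain factor needed for hair cell survival. Srrm4 is a splicing regulator of neurons and hair cells that promotes the inclusion of microexons, and its loss in the Bronx waltzer mouse kills vestibular hair cells. Several of these genes are also made outside hair cells and supporting cells, Srrm4, Insm1, Isl1 and Gata3 in neurons and Sox2 in Schwann cells.

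The samples were utricle explants of wild-type mice at postnatal day 2 (P2). They were damaged with 2 mM gentamicin for 24 h and compared at day 5 after injury. Utricles were pooled, and the study's methods give 12 per group, read here as 12 in each library. The Gent+Fos OE group (4 libraries) also received AAV-PHP.eB carrying mouse Fos under the ubiquitous CMV promoter for 48 h, so expression was not restricted to 1 cell type. The Gent group (3 libraries) is labelled as a gentamicin control, with no virus named, while a figure legend of the study speaks of a control AAV group. Its deposited count tables carry letters in their names that could also mean shRNA, and whether those explants had been given any virus, and if so which, is not settled. Every fold change is therefore between the groups as labelled. There was no undamaged group in these data, so the values do not show where a gene stood before injury. Each library is a pool of whole explants, and in such bulk RNA fewer cells of a type and less RNA per cell cannot be told apart.

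Promoter sequences of the genes with the largest fold change in each direction among the 8 tested regulators, Srrm4 (higher) and Hes6 (lower), are shown first. They run from 250 bases before to 50 bases after the start of transcription, are taken from RefSeq (GRCm38.p6, the build also called mm10), and read 5′ to 3′ along the gene, which for both lies on the minus strand. Capitals mark CAGCTG, an E-box of the kind that basic helix-loop-helix factors such as Atoh1 bind. Hes6 has a window at each of its annotated starts.
Srrm4 (chr5:116591768-116592067): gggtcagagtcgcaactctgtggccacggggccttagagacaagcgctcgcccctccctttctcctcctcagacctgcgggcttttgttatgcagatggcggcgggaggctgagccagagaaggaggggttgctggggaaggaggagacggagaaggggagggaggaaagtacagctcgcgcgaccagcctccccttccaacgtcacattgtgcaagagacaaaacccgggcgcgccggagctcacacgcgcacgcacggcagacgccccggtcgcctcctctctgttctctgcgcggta
Hes6, outer start (chr1:91413989-91414288): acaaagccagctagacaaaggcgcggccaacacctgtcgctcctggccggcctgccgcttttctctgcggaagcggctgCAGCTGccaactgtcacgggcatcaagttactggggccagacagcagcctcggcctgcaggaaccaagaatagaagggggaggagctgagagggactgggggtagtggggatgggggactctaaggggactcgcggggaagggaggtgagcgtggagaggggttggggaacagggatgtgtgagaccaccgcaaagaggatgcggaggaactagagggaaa
Hes6, inner start (chr1:91413173-91413472): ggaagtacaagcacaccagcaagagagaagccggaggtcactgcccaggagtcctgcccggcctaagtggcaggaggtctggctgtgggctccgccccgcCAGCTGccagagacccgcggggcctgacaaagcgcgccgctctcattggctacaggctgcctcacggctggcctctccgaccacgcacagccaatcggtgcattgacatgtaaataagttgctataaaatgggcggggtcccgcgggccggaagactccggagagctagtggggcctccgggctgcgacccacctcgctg

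The Srrm4 window holds no CAGCTG, and each Hes6 window holds 1, starting at position -171 from the outer start and at -150 from the inner one. Over all regulators, RefSeq gave 10 windows for 7 of the 9 genes, with none for Eya1 and Insm1. CAGCTG was in 6 of the 10 windows, those of Hes6, both of Barhl1, Gata3 and Isl1, and it was in 16.3% of all 32851 windows of this length. The AP-1 motif TGANTCA, which Fos binds together with a Jun protein, was in 0 of the 10 windows and in 7.81% of all windows, and the related CRE motif TGACGTCA was in 0 of the 10 and in 1.79% of all. Motifs were read on both strands, and none of the 3 contains another. The regulator windows held 50.3% to 71.0% G and C bases, against a median of 52.7% over all windows. Such matches describe these 300 bases and say nothing about binding.

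Library totals ran from 27879889 to 34335214 counts. Fos itself was at 148.82 to 166.98 CPM (read counts scaled to library size) in Gent+Fos OE and at 34.61 to 40.58 CPM in Gent, a log2 fold change of 2.01 (SE 0.13, adjusted p = 0.000142, quasi-likelihood F-test of edgeR, Benjamini-Hochberg adjusted over all tested genes), so every library matched its label. Hair cells and supporting cells were both represented, with Myo7a at 84.27 to 108.12 CPM and Tecta at 315.95 to 705.80 CPM over the 7 libraries. Gent replicate 2 stood apart. Across genes, which are not independent replicates, its log2 CPM relative to the average library tended to be low for long genes and high for short ones (Spearman's rho with exonic length -0.496), and the other 6 libraries had rho values between -0.221 and 0.325. The fold changes of the regulators are therefore given with and without this library, and with the length trend of each library taken out. For other genes and lists such values are given in part. A call required an adjusted p below 0.01 together with a log2 fold change beyond 0.25 in either direction, and a positive value means a higher level in Gent+Fos OE.

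At these limits 0 of the 8 tested regulators were called, while 0.414% of all tested genes were (71 genes). The values nevertheless differed between regulators. Eya1 and Srrm4 were higher in each Gent+Fos OE library than in every Gent library and Hes6 was lower in each, and these 3 genes had an unadjusted p under 0.05. That is 3 of 8, where 23.4% of all tested genes had groups that did not overlap and 24.5% an unadjusted p under 0.05. The other 5 tested regulators had overlapping groups. With DESeq2, the tool named in the study's methods, 1 of the 8 was called at the same limits, Srrm4 (adjusted p = 0.00731), where 3.17% of all genes were.

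**Figure D1:**
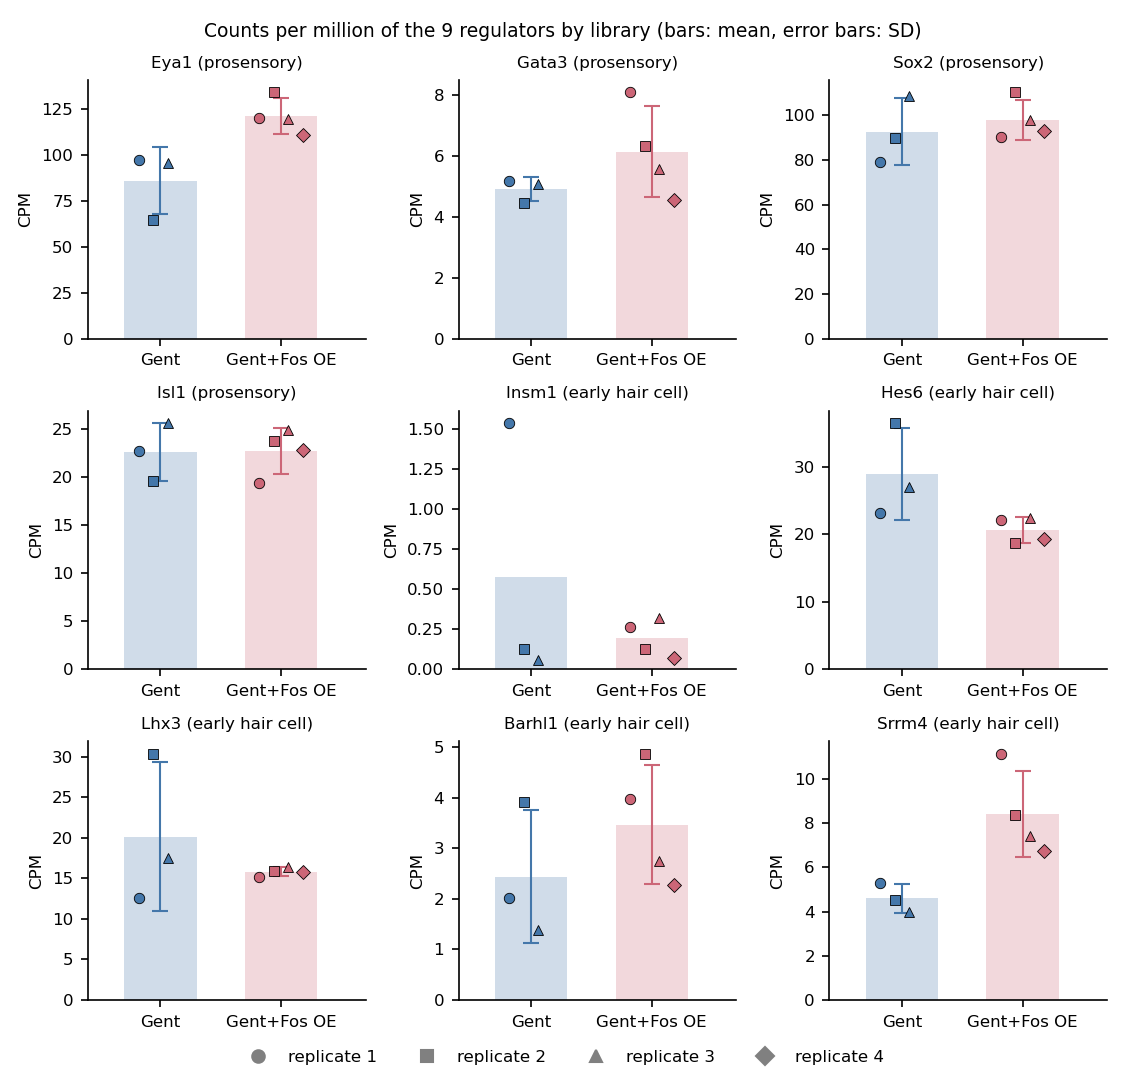
Read counts scaled to library size (y axis, CPM) of the 9 regulators in the 3 Gent and 4 Gent+Fos OE libraries. Each panel has its own scale from 0. CPM are TMM-normalized except for Insm1, which is scaled to the library total. Bars are group means, error bars are SD, and each point is 1 library with its shape giving the replicate number. Eya1 and Srrm4 lie higher in all 4 Gent+Fos OE libraries and Hes6 lies lower, and Insm1, shown without SD because it was not tested, owes its Gent bar to replicate 1.

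Among the prosensory genes, Eya1 (ENSMUSG00000025932, chr1:14168954-14310235, minus strand, 7808 bp of exons) was at 120.00, 134.05, 119.77 and 110.93 CPM in Gent+Fos OE replicates 1 to 4 and at 97.37, 64.74 and 95.75 CPM in Gent replicates 1 to 3. The groups did not overlap, and Gent replicate 2 was the lowest library by far. The means were 121 ± 9.56 CPM (SD, n = 4) and 86.0 ± 18.4 CPM (SD, n = 3). The log2 fold change was 0.50 (SE 0.16, 95% interval 0.14 to 0.85, a 1.41-fold ratio), and edgeR gave a Benjamini-Hochberg adjusted p of 0.120. The two-sided exact permutation test of mean log2 CPM gave p = 0.0286, the smallest that 4 against 3 libraries allow. Without Gent replicate 2 the log2 fold change was 0.32, and with the length trend removed it was 0.33, so the estimate was smaller in both.

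Eya1 belongs to a family whose members did not all lie on the same side. Eya4, a paralog of Eya1 made in the ear, had a log2 fold change of 0.43 (SE 0.13) with groups that did not overlap, and Eya2 had -0.69 (SE 0.23) with groups that did not overlap in the other direction. Eya3 was at 0.05. Of the homeodomain partners that recruit Eya proteins to DNA, Six4 was at 0.53 (SE 0.15) and Six2 at -0.33. With the length trend removed Eya4 was at 0.18, Six4 at 0.22, Six2 at -0.17 and Eya3 at -0.04, and without Gent replicate 2 Six2 was at -0.06. None of these 5 genes was called. The lowest adjusted p among them was 0.0976, for Six4, by edgeR (Benjamini-Hochberg).

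Gata3 (ENSMUSG00000015619, chr2:9857078-9890034, minus strand, 3978 bp) was measured at 8.08, 6.31, 5.57 and 4.56 CPM in Gent+Fos OE and at 5.17, 4.45 and 5.08 CPM in Gent. The 3 highest values were all Gent+Fos OE libraries, but replicate 4 of that group lay among the Gent libraries. Its log2 fold change of 0.32 (SE 0.22, 95% interval -0.16 to 0.81) had an adjusted p of 0.373 by edgeR (Benjamini-Hochberg), and without Gent+Fos OE replicate 1 it was 0.16. Between 128 and 248 reads per library lie behind these values. The exons of Gata3 share 5.83% of their bases with Gata3un and Gm13256, and since strand was not used in counting, reads from the shared bases are not in the count of either gene. Its paralog Gata2 had a log2 fold change of 0.20 (0.12 with the length trend removed). The cofactors of Gata proteins, Zfpm1 and Zfpm2, had 0.10 and 0.09, which without Gent replicate 2 were 0.40 and -0.20.

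Sox2 (ENSMUSG00000074637, chr3:34650405-34652461, plus strand, 2057 bp in 1 exon), which is kept by supporting cells after birth, was at 90.21, 110.23, 97.74 and 93.11 CPM in Gent+Fos OE. In Gent it was at 79.23, 89.97 and 108.78 CPM. Libraries of both groups were mixed along this range. On the log2 scale the fold change was 0.08 (SE 0.14, 95% interval -0.23 to 0.39, adjusted p = 0.750, edgeR, Benjamini-Hochberg), an interval that covers differences on both sides. Without Gent replicate 1 it was -0.02, and with the length trend removed 0.21. The other SoxB genes tested had log2 fold changes of 0.19 (Sox1) and 0.07 (Sox21), and Sox9, a supporting cell gene of another Sox group, had 0.42 (SE 0.15, adjusted p = 0.148 in the same test).

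Isl1 (ENSMUSG00000042258, chr13:116298281-116309689, minus strand, 3959 bp) had the smallest difference. It was at 19.31, 23.73, 24.89 and 22.81 CPM in Gent+Fos OE and at 22.62, 19.52 and 25.54 CPM in Gent. The highest and the next to lowest library were Gent libraries, and the lowest was Gent+Fos OE replicate 1. The estimated log2 fold change was 0.01 (SE 0.15, 95% interval -0.32 to 0.33, adjusted p = 0.979, edgeR, Benjamini-Hochberg). Without Gent replicate 2 it was -0.09, and with the length trend removed 0.02. Its paralog Isl2, at 3.13 to 3.89 CPM in Gent+Fos OE and 1.85 to 2.34 CPM in Gent, had a log2 fold change of 0.68 (SE 0.23, adjusted p = 0.132 in the same test). Lmo4, a LIM-only protein that competes for the Ldb cofactors of LIM homeodomain factors, was at 49.91 to 59.01 CPM against 71.97 to 80.48 CPM, a log2 fold change of -0.48 (SE 0.12, adjusted p = 0.0656 in edgeR's test). The cofactors Ldb1 and Ldb2 were at -0.25 and 0.10, and at -0.01 and -0.12 without Gent replicate 2.

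Among the early hair cell genes, Srrm4 (ENSMUSG00000063919, chr5:116439275-116591817, minus strand, 8678 bp) had the largest fold change of the 8. It was at 11.14, 8.36, 7.44 and 6.74 CPM in Gent+Fos OE and at 5.30, 4.52 and 3.99 CPM in Gent, from 138 to 342 reads per library. The lowest Gent+Fos OE library lay above the highest Gent library, and here Gent replicate 2 was the middle of its group. The means were 8.42 ± 1.93 CPM (SD, n = 4) and 4.60 ± 0.663 CPM (SD, n = 3). The log2 fold change was 0.87 (SE 0.22, 95% interval 0.39 to 1.35), a 1.83-fold ratio. Its adjusted p was 0.0718 by edgeR (Benjamini-Hochberg), and the exact permutation test gave p = 0.0286. With DESeq2 the log2 fold change was 0.88 and the adjusted p 0.00731, and with limma-voom and sample quality weights, which called 5.6% of all genes, 0.95 and 0.00652, so Srrm4 passed the limit in 2 of 18 alternative analyses. Taking out the length trend gave 0.64, and leaving out Gent replicate 2 gave 0.85. The gene shares 0.78% of its exonic bases with its antisense partner Srrm4os, and those reads are in neither count.

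Srrm4 is also a neuronal gene, so the neuronal markers are set beside it. The 11 tested markers of 15 summed to 306.8 to 371.3 CPM in Gent+Fos OE and to 284.7 to 310.6 CPM in Gent, ranges that overlapped, with a median log2 fold change of 0.22. At an unadjusted p under 0.05, 3 were higher (Stmn2 at 1.72, Ntrk3 at 0.46 and Nefm at 0.45) and 1 was lower (Gap43 at -0.62), 0 were called, and none had groups that did not overlap. With the length trend removed the median was -0.05 and Ntrk3 was at -0.21. The other 4, Elavl3, Nefh, Prph and Pou4f1, had 56 to 74 reads each over all 7 libraries together and were not tested. The part of neurons in the Srrm4 values was not tested. Srrm3, the closest paralog, had a log2 fold change of 0.11, which was 0.51 without Gent replicate 2 and -0.05 with the length trend removed. Rest, the repressor of neuronal genes whose own splicing Srrm4 alters, had 0.46 (SE 0.22, adjusted p = 0.219, edgeR, Benjamini-Hochberg), and 0.19 without Gent replicate 2. Of the 12 genes listed for neural splicing and Rest repression, 0 had an unadjusted p under 0.05, and their median log2 fold change was 0.06. That median was -0.09 with the length trend removed and 0.12 without Gent replicate 2. Read counts per gene carry no information on which exons were included.

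Hes6 (ENSMUSG00000067071, chr1:91411483-91414038, minus strand, 1808 bp), the shortest of the 9, was at 22.11, 18.68, 22.38 and 19.36 CPM in Gent+Fos OE and at 23.20, 36.51 and 27.07 CPM in Gent. Each Gent library was above each Gent+Fos OE library, though Gent replicate 1 and Gent+Fos OE replicate 3 were close, and Gent replicate 2 was the highest. The means were 20.6 ± 1.89 CPM (SD, n = 4) and 28.9 ± 6.84 CPM (SD, n = 3). The log2 fold change was -0.49 (SE 0.17, 95% interval -0.86 to -0.12, a ratio of 0.713), with an adjusted p of 0.134 by edgeR (Benjamini-Hochberg) and p = 0.0286 in the exact permutation test. Without Gent replicate 2 it was -0.29, and with the length trend removed -0.31. The related repressors lay near 0, with log2 fold changes of 0.04 for Hes1, 0.00 for Hey1, -0.16 for Hey2 and -0.05 for Heyl, and between -0.28 and 0.18 for these 4 with the length trend removed or without Gent replicate 1 or 2, and Hes5 had 36 reads in all and was not tested. The corepressors that Hes proteins recruit, Tle1 to Tle4, were at 0.12, 0.08, 0.36 and 0.29, and at -0.11, -0.07, 0.04 and 0.22 with the length trend removed.

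Lhx3 (ENSMUSG00000026934, chr2:26200212-26208289, minus strand, 3045 bp) was nearly even in Gent+Fos OE, at 15.11, 15.92, 16.40 and 15.83 CPM. In Gent it was at 12.56, 30.35 and 17.51 CPM. Gent replicate 2 was the highest library and Gent replicate 1 the lowest, so the Gent libraries lay on both sides of the other group. Its estimate of -0.35 on the log2 scale (SE 0.25, 95% interval -0.89 to 0.19, adjusted p = 0.387, edgeR, Benjamini-Hochberg) became 0.07 without Gent replicate 2 and -0.60 without Gent replicate 1, so its direction depended on 1 library. The exons of Lhx3 share 6.17% of their bases with Gm27196. Its paralog Lhx4 had 8 reads in all.

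Barhl1 (ENSMUSG00000026805, chr2:28907679-28916668, minus strand, 3905 bp) was at 3.97, 4.87, 2.75 and 2.28 CPM in Gent+Fos OE and at 2.02, 3.91 and 1.39 CPM in Gent, from 48 to 159 reads per library. Gent replicates 1 and 3 were the lowest libraries, and Gent replicate 2 lay among the higher Gent+Fos OE libraries. The log2 fold change was 0.51 (SE 0.39, 95% interval -0.34 to 1.36, adjusted p = 0.418, edgeR, Benjamini-Hochberg), the widest interval of the 8. It was 1.03 without Gent replicate 2, 0.23 without Gent replicate 3 and 0.30 without Gent+Fos OE replicate 2. Barhl2, its paralog, had 31 reads in all and was not tested.

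Insm1 (ENSMUSG00000068154, chr2:146221921-146225020, plus strand, 3100 bp in 1 exon) had very few reads. The read counts were 8, 4, 10 and 2 in Gent+Fos OE and 46, 4 and 2 in Gent. Gent replicate 1 alone held 60.5% of the 76 reads, and the other 6 libraries held 30 reads between them. Elavl3, a neuronal marker, had 41 of its 74 reads in the same library, whereas Nefh, Prph and Pou4f1 had 14, 8 and 4 reads there of 64, 64 and 56. The part of neurons in the Insm1 counts was not tested. The gene did not pass the expression filter. DESeq2, which kept it, gave a log2 fold change of -1.59 (SE 1.06, adjusted p = 0.342). Insm2, the paralog, had 14 reads in all.

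**Figure D2:**
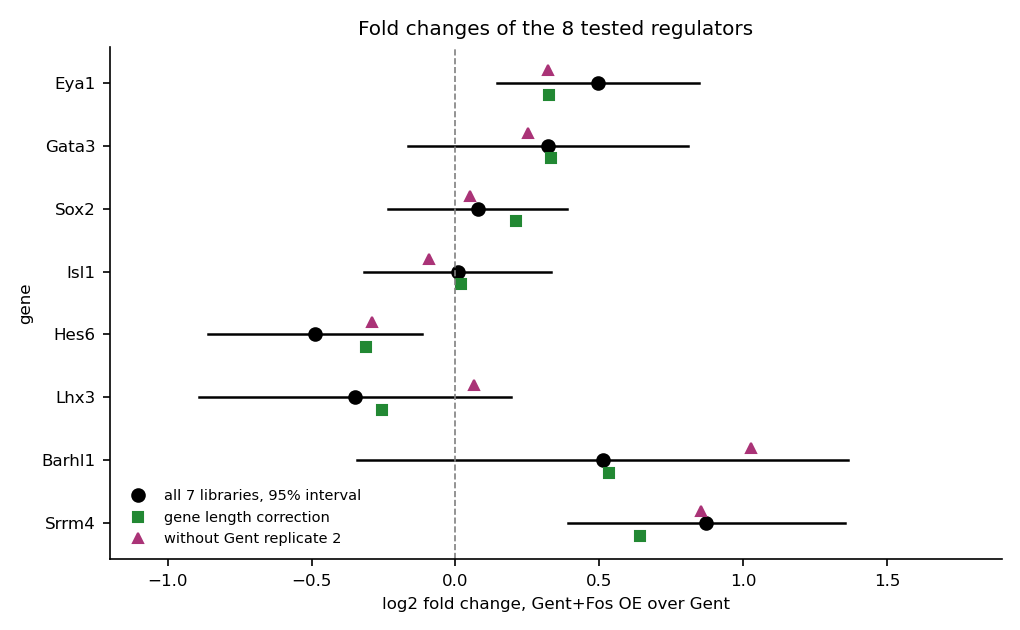
Log2 fold change (x axis, Gent+Fos OE over Gent) of the 8 tested regulators; black points and lines are estimates and 95% intervals from all 7 libraries, green squares the estimates with the gene length trend removed, and purple triangles those without Gent replicate 2. The intervals of Eya1, Hes6 and Srrm4 do not cover 0, and Lhx3 and Isl1 change sign without Gent replicate 2.

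Set against each other, the prosensory and the early hair cell genes did not separate. The 4 prosensory genes all had estimates above 0, from 0.01 to 0.50, although those of Sox2 and Isl1 turned sign in 2 and 5 of 18 alternatives, with a median of 0.20 and 0 called. The 4 tested early hair cell genes were spread over both signs, from -0.49 to 0.87, with a median of 0.08 and 0 called by edgeR. Over all 17155 tested genes the median was -0.001. The difference between the 2 medians was 0.12 with all libraries but -0.31 without Gent replicate 2, where the early hair cell median was 0.46 and the prosensory one 0.15. Which list lay higher therefore depended on 1 library.

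The values of single libraries are set out next. The mean deviation of log2 CPM over the prosensory genes was 0.12, 0.21, 0.10 and -0.05 in Gent+Fos OE replicates 1 to 4 and -0.11, -0.32 and 0.04 in Gent replicates 1 to 3. For the early hair cell genes it was 0.25, 0.18, 0.01 and -0.15, and -0.30, 0.36 and -0.36. The groups overlapped in both lists. Gent replicate 2 combined the lowest prosensory with the highest early hair cell mean of all 7 libraries, a gap of -0.67, while the other 6 libraries had gaps of -0.14 to 0.39. No test was made on these means, because the genes were chosen with earlier results of the data known.

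**Figure D3:**
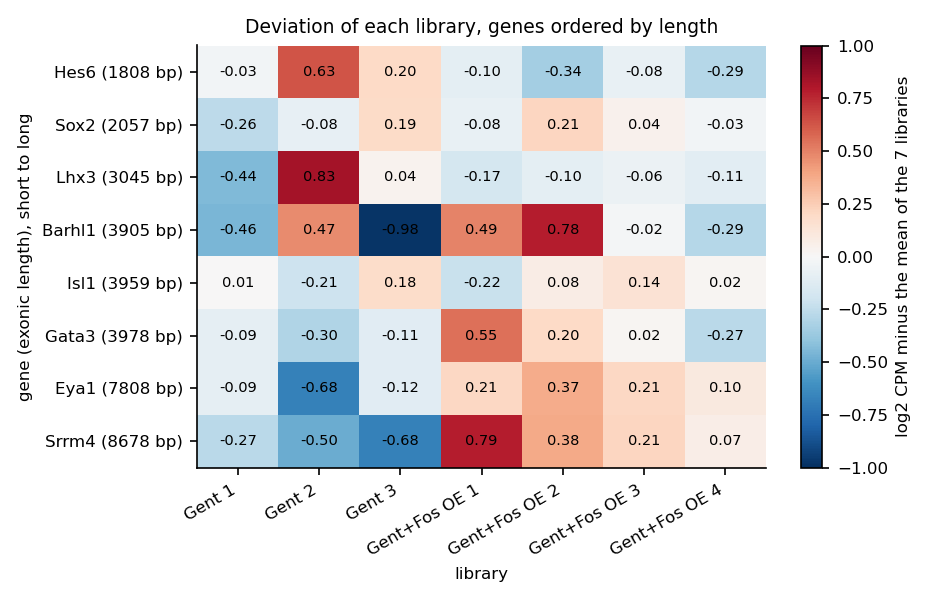
Deviation of log2 CPM from the average over the 7 libraries (color and printed value) for the 8 tested regulators (rows, ordered by exonic length in bp) in each library (columns). Gent replicate 2 has its highest values in Hes6 (0.63) and Lhx3 (0.83), which are short, and its lowest in Eya1 (-0.68), which is long. Not all genes follow length in that library. Sox2, shorter than Lhx3, is at -0.08, and Barhl1 and Gata3, close in length, are at 0.47 and -0.30. The Gent+Fos OE libraries are all above 0 in Eya1 and Srrm4.

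In exonic length the 8 genes ran from 1808 bp (Hes6) to 8678 bp (Srrm4), against a median of 4084 bp over the tested genes. The 2 longest, Eya1 and Srrm4, were those with groups that did not overlap on the higher side, and the shortest, Hes6, was the gene with groups that did not overlap on the lower side. With the length trend removed the estimates of these 3 genes kept their sign at 0.33, 0.64 and -0.31, with adjusted p values of 0.113, 0.111 and 0.183 by edgeR (Benjamini-Hochberg). What set this trend was not tested.

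Per kilobase of exon (RPKM), the regulators covered a wide range of levels. In Gent, Sox2 was the highest at 45.0 ± 7.27 RPKM (SD, n = 3), above 93.7% of the tested genes, followed by Hes6 at 16.0 ± 3.78 and Eya1 at 11.0 ± 2.35. Lhx3 (6.61 ± 3.02) and Isl1 (5.70 ± 0.761) lay in the middle of all tested genes. Gata3 (1.23 ± 0.098), Barhl1 (0.625 ± 0.336), Srrm4 (0.530 ± 0.0764) and Insm1 (0.185 ± 0.270) were low. In this order Eya1 and Lhx3, Lhx3 and Isl1, Barhl1 and Srrm4, and Srrm4 and Insm1 had overlapping ranges. In Gent+Fos OE, Eya1, at 14.2 to 17.2 RPKM, lay above Hes6, at 10.3 to 12.4 RPKM. That is the reverse of the Gent order, where Hes6 was at 12.8 to 20.2 RPKM and Eya1 at 8.29 to 12.5 RPKM. Hes6 is short and Eya1 long, and RPKM were not corrected for the length trend of the libraries. The means of Lhx3 and Isl1 (5.19 and 5.73 in Gent+Fos OE) and of Barhl1 and Srrm4 (0.888 and 0.970) also changed order, with overlapping ranges.

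**Figure D4:**
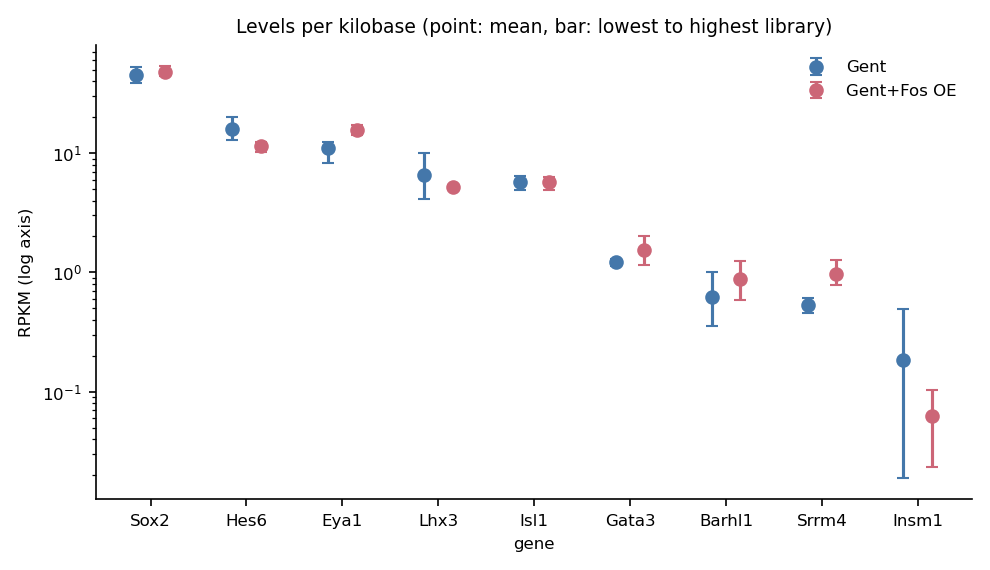
Level per kilobase (y axis, RPKM, log scale) of the 9 regulators in order of their Gent mean; points are means of 3 Gent and 4 Gent+Fos OE libraries and bars run from the lowest to the highest library. Sox2 is the highest in both groups and Insm1 the lowest. The means of Hes6 and Eya1, of Lhx3 and Isl1, and of Barhl1 and Srrm4 change places between the groups.

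The regulators are part of a wider set of genes, described here by their counts beside all tested genes. Over all genes, edgeR called 0.414% and DESeq2 called 3.17%. At an unadjusted p under 0.05, 11.1% of all tested genes were higher and 13.4% lower. Of 29 tested other otic and prosensory genes, 8 were higher and 3 lower at this level, their median log2 fold change was 0.20 (0.12 with the length trend removed), and edgeR called 0 of them and DESeq2 called 4. Hmga2, a chromatin protein of progenitor cells, was at 11.73 to 15.39 CPM in Gent+Fos OE and 7.69 to 8.94 CPM in Gent, a log2 fold change of 0.70 (SE 0.16, adjusted p = 0.0557, edgeR, Benjamini-Hochberg). Jag1, the Notch ligand of prosensory cells, was at 0.63 (SE 0.19) and at 0.41 without Gent replicate 2. Bmp4, a growth factor made in the sensory patches, was at -0.85 (SE 0.21), and Lmo4 is given above. None of these 3 genes passed the limits in edgeR, and Hmga2 and Bmp4 passed them in DESeq2, as did Lmo4.

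Of 14 tested other hair cell regulators, 3 were higher and 1 lower at an unadjusted p under 0.05, their median log2 fold change was 0.17, and edgeR and DESeq2 both called 0. The median was 0.06 with the length trend removed and 0.05 without Gent replicate 1. Rfx3, a factor of ciliated and hair cells, was at 0.81 (SE 0.27) and Ikzf2, a zinc finger factor of outer hair cells, at 0.71 (SE 0.28). Both were lowest in Gent replicate 2, without which their values were 0.48 and 0.38. The Notch ligand gene Dll3 was at -1.16 on less than 1 CPM in every library, and Jag2, a ligand made by hair cells, at 0.35 (0.19 with the length trend removed). These 4 genes were named because their groups did not overlap and their unadjusted p was under 0.05. Of 22 tested partners and paralogs, 3 were higher and 2 lower at this level, with a median of 0.09 (0.05 with the length trend removed), and edgeR called 0 of them and DESeq2 called 1, Lmo4.

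**Figure D5:**
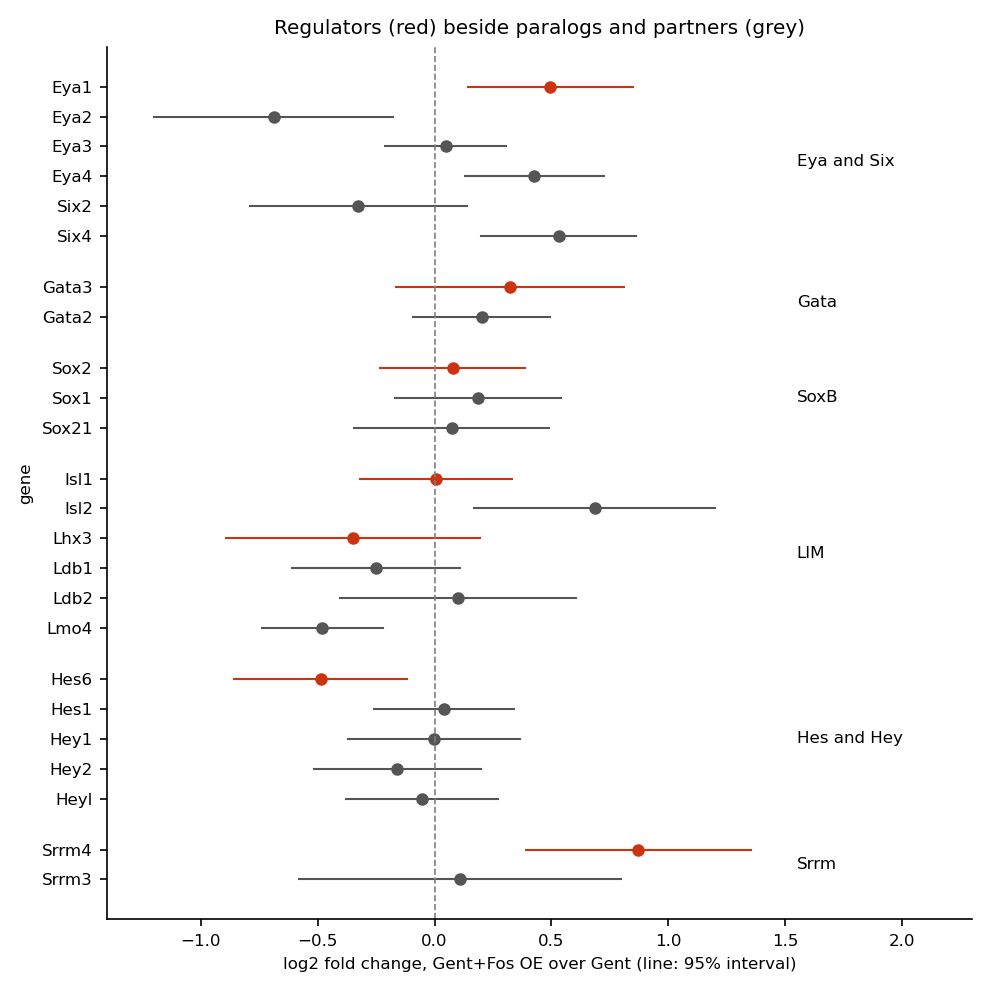
Log2 fold change with 95% interval (x axis, Gent+Fos OE over Gent) of 7 regulators in red and of some of their tested paralogs and partners in grey, grouped by family. Eya4 and Six4 lie with Eya1 above 0 and Eya2 lies below, Lmo4 lies below 0 and Isl2 above, and the Hes and Hey genes beside Hes6 lie near 0.

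Markers of the cell types in the explants are given beside the regulators. The 23 tested structural genes of hair cells summed to 1442 to 1694 CPM in Gent+Fos OE and to 1129 to 1391 CPM in Gent, with 10 higher and 1 lower at an unadjusted p under 0.05 (median log2 fold change 0.18, and 0.05 without Gent replicate 1). Of this list edgeR called 0 genes, DESeq2 called 3, and edgeR without Gent replicate 2 called 2. The largest was Pcdh15, the tip link protocadherin, at 1.08 (SE 0.21, adjusted p = 0.0288, edgeR, Benjamini-Hochberg), and 0.56 with the length trend removed. Myo7a itself had overlapping groups. For supporting cells, the 14 genes summed to 3302 to 4032 CPM against 2643 to 3305 CPM, of which Otog was 830.35 to 1354.25 CPM and 431.17 to 466.13 CPM. Their median log2 fold change was 0.07 (-0.03 without Gent replicate 1), with 4 higher and 2 lower at an unadjusted p under 0.05. Of them, edgeR called 1, Otog, a glycoprotein of the otolithic membrane, which rose by 1.25 on the log2 scale (SE 0.18, adjusted p = 0.00851 in the same test, a call that 10 of the 18 alternatives did not give). DESeq2 called 4 genes of this list, and edgeR without Gent replicate 2 called 2. Over all genes, DESeq2 called 3.17%, and edgeR without Gent replicate 2 called 138 of the 17155 tested. Tectb, a tectorin, was at -1.39 (SE 0.27, adjusted p = 0.0348). Schwann cell and glial genes (11 tested) summed to 519.4 to 584.5 CPM against 485.3 to 759.9 CPM with a median of -0.28 (-0.11 without Gent replicate 2). Mesenchymal genes (10 tested) had a median of -0.15, which was -0.27 with the length trend removed and -0.003 without Gent replicate 1. The part of these markers in the values of the 9 regulators was not tested.

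Over the 7 libraries, the regulators did not follow a common profile. Likeness was measured as the root mean square difference of log2 CPM scaled to unit SD, a description over 7 points that share depth and the length trend. The closest pair of regulators was Gata3 and Srrm4, a prosensory and an early hair cell gene, at 0.565. The closest regulator to Hes6 was Lhx3 at 0.581, the closest to Eya1 was Srrm4 at 0.659, and the closest to Sox2 was Isl1 at 0.875. Among 14838 genes with at least 1 CPM, those nearest to Eya1 were Lrba (0.0433) and Afdn (0.0568), and those nearest to Lhx3 were Abhd4 (0.0617) and Ypel3 (0.0746). In the profiles of both Eya1 and Lhx3, Gent replicate 2 was the library farthest from the average. Hes6 was nearest to Foxred1 (0.0979) and Aamp (0.116), and Srrm4 to the gene ENSMUSG00000087042 (0.127) and Kif24 (0.178). For the others the nearest genes were Slc4a3 and Arhgef40 for Barhl1 (0.148 and 0.224), Atg12 and Galnt11 for Isl1 (0.155 and 0.263), Cyp39a1 and Polr3gl for Sox2 (0.213 and 0.217), and Edc4 and Ppp6r1 for Gata3 (0.231 and 0.234).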

How the data were processed

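RNA sequencing covered 7 libraries, 4 Gent+Fos OE and 3 Gent, each from pooled utricles (12 per group in the study's methods). The authors deposited raw counts of reads on each gene. Per the labels, reads were trimmed with Trim Galore 0.6.10, aligned with HISAT2 2.2.1 to mm10 and counted with featureCounts 2.0.6. Per the file headers, pairs were not counted as fragments, strand was not used, and reads hitting several places or genes were dropped. The study's methods name another genome build, so coordinates are those of the files (mm10). Symbols were given to 24497 of 32285 genes, and 7892 genes share exonic bases with another.

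The counts were filtered (filterByExpr), normalized (TMM) and compared by the quasi-likelihood F-test of edgeR 4.0.16 in R 4.3.3, without a covariate. Tables were made with pandas 2.3.3 and figures with matplotlib 3.10.9 under Python 3.11.15. CPM are TMM-normalized, except for Insm1, which was not tested and is scaled to the library total. RPKM are these CPM per kilobase of exon. SE is the log2 fold change over the root of F. No libraries of a group were near identical (chi-square per degree of freedom 17.8 to 147 over genes), so each counted as 1 replicate. For genes with few reads, such as Insm1 and Barhl1, counting error adds to the spread between libraries. The labels call the replicates biological. All 7 libraries entered, although the methods state fewer. Alternatives were DESeq2 1.42.0 (at least 10 counts in total), limma 3.58.1 (voom, without and with quality weights), bias-adjusted quasi-dispersions, upper quartile and RLE normalization, a stricter filter (10 counts or more in each library) and none, a loess length correction (span 0.3), a replicate block without and with it, and leaving out each library. The scripts were tested on simulated data. Genes named are the 9 regulators, Fos, their partners and paralogs, called genes of the other lists and up to 5 genes per list with an unadjusted p under 0.05 and groups that did not overlap, and the 2 genes nearest in profile to each regulator (mean of at least 1 CPM). Myo7a, Tecta, Sox9, Hes5, Elavl3, Stmn2, Ntrk3, Nefm, Gap43, Rest and the untested markers were named after their values were seen. Some genes of the lists are counted but their own values are not reported here. The members and lists were chosen with earlier results of these data known.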

Additional observations from a re-analysis of the deposited data

Results flagged for a closer look

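Groups of 3 were not checked, which leaves out the Gent libraries, Insm1 in Gent replicate 1 among them. Among the 4 Gent+Fos OE libraries, no tested regulator stood far from the rest, and 9 of 138 genes checked from the lists had 1 Gent+Fos OE library set far apart from the other 3 by Dixon's test at the 95% level. Chance gives such a distance in about 1 of 20 groups. In Gent+Fos OE replicate 3, Fos was at 166.98 CPM (148.82 to 151.14 in the other 3), Lfng, a modifier of Notch, at 130.66 (122.51 to 123.27) and Hey1 at 56.23 (43.14 to 45.31). In replicate 2, Fgf10 was at 38.98 (30.68 to 31.72) and Egr2 at 6.64 (9.80 to 10.23). In replicate 4, Nova1 was at 6.02 (3.42 to 3.64), Slc17a8 at 51.76 (56.57 to 57.44) and Chrna10 at 9.20 (12.13 to 12.62). In replicate 1, Ikzf2 was at 34 (40.15 to 40.29).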

How the results depend on the processing

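Over 18 alternatives, 134 of the 144 fold changes of the 8 tested regulators kept their sign and their side of the limits. Eya1 (0.32 to 0.59), Gata3 (0.16 to 0.44), Hes6 (-0.62 to -0.27), Barhl1 (0.23 to 1.04) and Srrm4 (0.64 to 0.99) kept their sign in all 18. Signs turned for Sox2 with quality weights (-0.083) and on leaving out single libraries (-0.023 to 0.209), for Isl1 with quality weights (-0.11), upper quartile normalization (-0.022) and leaving out single libraries (-0.091 to 0.107), and for Lhx3 on leaving out single libraries (-0.597 to 0.066). DESeq2 and limma-voom with quality weights each called 1 regulator, Srrm4, and 0 were called without any single library.

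With quality weights the early hair cell median was 0.43 and the prosensory median less it -0.36, and without single libraries these ran from -0.11 to 0.46 and from -0.31 to 0.39. Calls over all genes (23 higher, 48 lower) were 273 and 327 with DESeq2, 531 and 430 with quality weights, 63 and 141 without a filter, 35 and 95 with the length correction, and 2 to 45 and 3 to 93 without single libraries, with the fewest calls without Gent+Fos OE replicate 3. The cause was not tested.

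Same-numbered libraries of the groups correlated at 0.064, -0.038 and 0.032 in their deviations, and not every library correlated best with its own number. Values this near 0 from so few libraries cannot show whether the numbers pair the libraries. With a replicate block 0 genes were called higher and 0 lower, Fos had a log2 fold change of 2.03 (adjusted p = 0.0296) and Srrm4 0.95 (adjusted p = 0.108) by edgeR's quasi-likelihood test. With block and length correction together, 17 were higher and 31 lower.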
